A study of Mus musculus with 6 samples.

Results

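The 44 genes described here mark B cells or make up the MHC class II antigen presentation machinery. They were taken by symbol from a list: 18 genes of the B cell receptor and B cell surface, 8 of B cell signalling, 7 B cell transcription factors, and 11 of MHC class II and antigen processing. All 44 were listed in at least 1 library, among 16749 genes in all. The RNA came from flow-sorted CD8+ T cells of a tissue labelled iLN, taken from tumor-bearing C57BL/6 mice after treatment with the platinum drug oxaliplatin. Of the 6 libraries, 3 were Id2 knockout, labelled ID2KO (Cd4creId2f/f), and 3 were WT (Id2f/f). Both groups thus carried the floxed Id2 allele, the tumor and the drug, and Cre was present in the knockout group alone, so Cre itself and the loss of Id2 cannot be told apart. Cd4-Cre acts in T lineage cells from the thymocyte stage that makes CD4, and B cells are not the cells it is meant for. The labels give no age and do not say how many animals a sample came from, so the p-values rest on a spread between samples that may be technical.

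B cells recognise antigen through a surface immunoglobulin that signals through the CD79A and CD79B chains, whose tails are phosphorylated by LYN and BLK and read by SYK, BLNK and BTK. The receptor's strength is tuned by co-receptors such as CR2 and by inhibitors such as CD22, CD72, SIGLECG and the Fc receptor FCGR2B. The factors EBF1 and PAX5 set and keep B cell identity. B cells also present peptides on MHC class II: the invariant chain CD74 escorts the newly made alpha and beta chains, H2-DM loads the peptide, H2-DO restrains H2-DM, and CIITA switches the whole gene set on. In mice, T cells as a rule make no classical MHC class II, unlike B cells, dendritic cells and macrophages.

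The libraries held between 7699181 and 8495123 expected counts each. Id2 measured 1.67, 2.64 and 2.12 FPKM in the knockout libraries, against 370.98, 146.76 and 149.01 FPKM in the WT libraries, which separates the labelled groups. FPKM scales fragments by transcript length and library size, so levels can be compared between genes. The CD8 chain Cd8a averaged 214 ± 17.8 FPKM in knockout and 212 ± 10.9 FPKM in WT (SD, n = 3 each), and Cd4 averaged 1.48 ± 0.560 FPKM in knockout and 2.36 ± 0.991 FPKM in WT. Knockout replicate 2 stood apart from the other knockout libraries in the B cell and MHC class II genes, and results are given with and without it.

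Transcripts of B cell and MHC class II genes were present in every library and differed several-fold between libraries of the same genotype. Their summed level was 991.42, 3585.91 and 890.54 FPKM in knockout replicates 1, 2 and 3, against 1231.67, 3753.86 and 4367.59 FPKM in WT replicates 1, 2 and 3. Knockout replicate 2 and WT replicates 2 and 3 were high, the other 3 libraries were low, and the groups overlapped. The highest knockout library was 4.03 times the lowest, and the highest WT library 3.55 times the lowest. The group means were 1823 ± 1528 FPKM in knockout and 3118 ± 1662 FPKM in WT (SD, n = 3 each), a log2 ratio of -0.77. Leaving out knockout replicate 2 gave -1.73, and leaving out knockout replicate 1, knockout replicate 3 or WT replicate 3 gave -0.48, -0.45 and -0.45. In bulk RNA, fewer B cells and less RNA per B cell cannot be told apart.

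As a share of all expected counts, the 44 genes took 0.145% in knockout replicate 1 (95% Wilson interval 0.142 to 0.147%), 0.491% in knockout replicate 2 (0.486 to 0.496%) and 0.133% in knockout replicate 3 (0.130 to 0.135%). They took 0.175% in WT replicate 1 (0.172 to 0.177%), 0.507% in WT replicate 2 (0.502 to 0.512%) and 0.595% in WT replicate 3 (0.590 to 0.600%). The intervals cover counting error only, and the steps between low and high libraries were many times wider than them. The summed level of 12 listed T cell and CD8 genes ran the other way: 5404.92, 4021.89 and 5079.05 FPKM in the knockout libraries, against 4859.61, 4389.93 and 4219.42 FPKM in the WT libraries. Its part in the result was not tested.

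**Figure D1:**
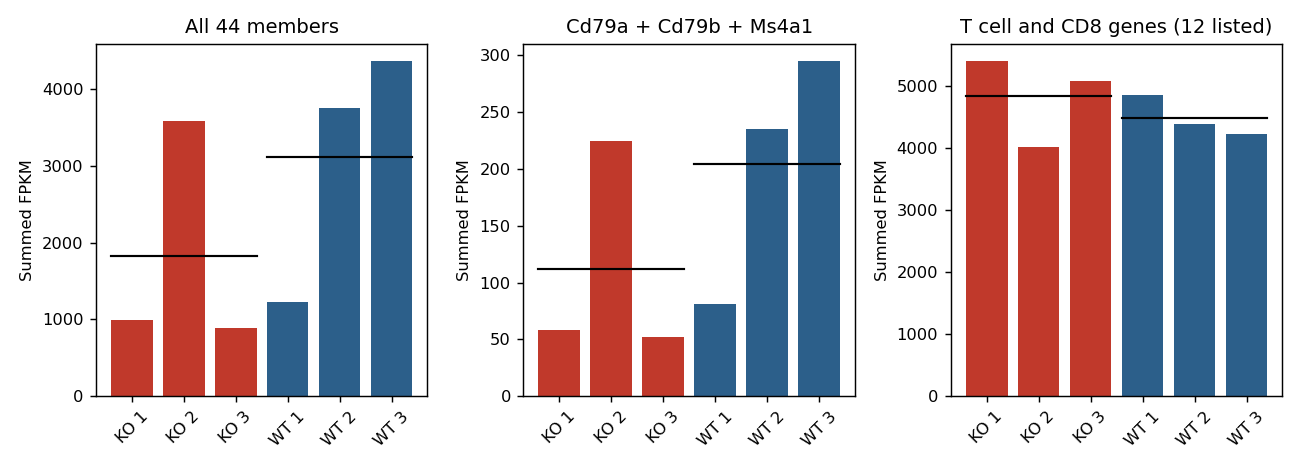
Summed FPKM (vertical axis) of all 44 B cell and MHC class II genes, of Cd79a, Cd79b and Ms4a1, and of 12 listed T cell and CD8 genes in each of the 6 libraries, with knockout (KO) left of WT and a black line at each group's mean. Knockout replicate 2 reached 3586 FPKM over the 44 genes, near WT replicate 2 at 3754 FPKM, while WT replicate 1 at 1232 FPKM lay nearer the other knockout libraries.

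The order of libraries was shared by most of the genes. Knockout replicate 2 was the highest knockout library in 42 of the 44, the exceptions being Cd72 and Tnfrsf13b. WT replicate 1 was the lowest WT library in all 44, and WT replicate 3 was the highest of the 6 libraries in 34. Knockout replicate 2 lay above WT replicate 1 in 42, all but Cd72 and Swap70. The shares of all tested genes with these orders were not counted. Of the 41 genes that passed the filter for testing (at least 1 FPKM in at least 3 of the 6 libraries), 28 had a highest library at least 4 times their lowest, against 630 of 10890 genes tested (5.79%). Counting those below the filter, the number was 30 of 44.

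**Figure D2:**
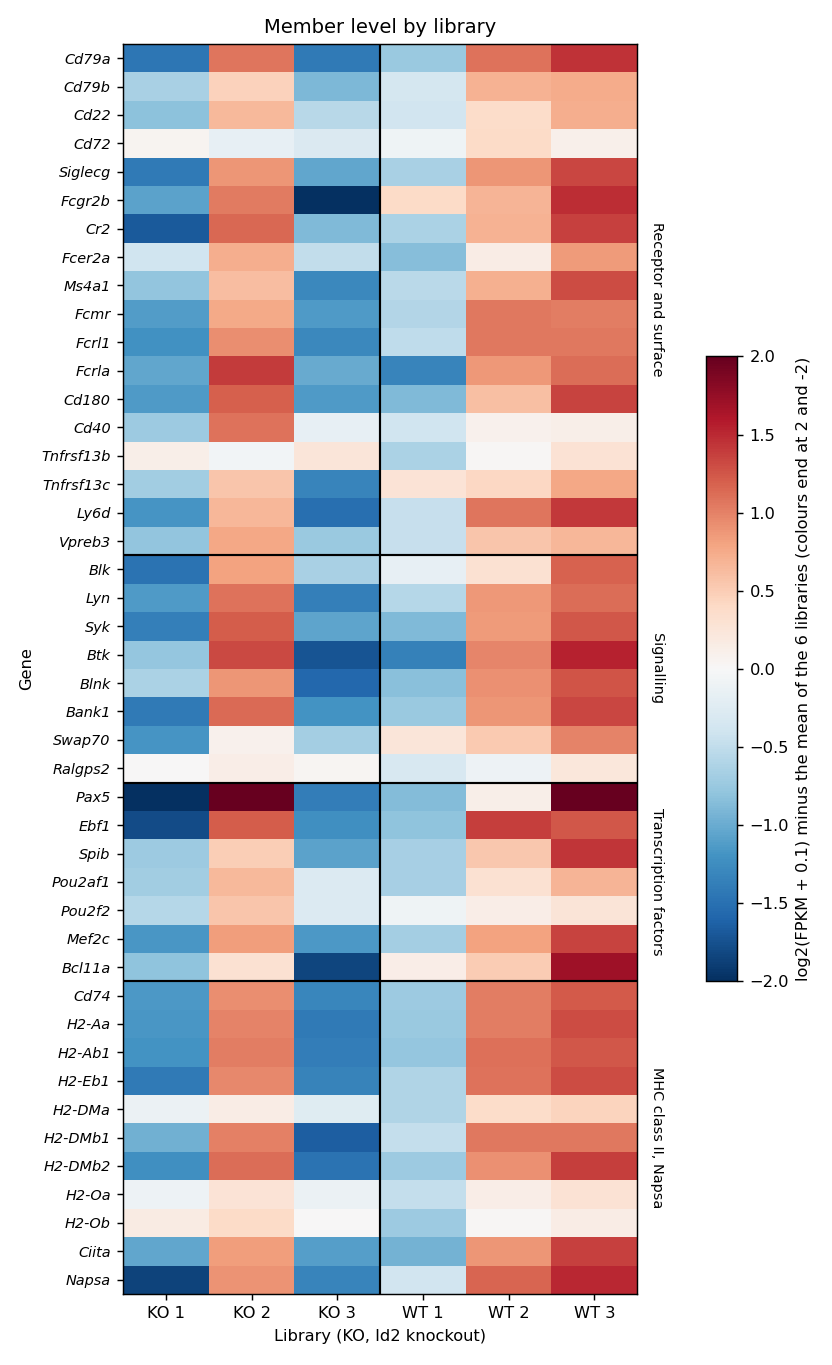
Level of each of the 44 genes (down the page, grouped by role) in the 6 libraries (across, knockout left of WT), as log2(FPKM + 0.1) minus the gene's mean over the 6 libraries. Knockout replicate 2 and WT replicates 2 and 3 are red in most lines, and Cd72, Tnfrsf13b, Ralgps2 and H2-Oa, whose highest library was under 2 times the lowest, stay pale.

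Both signalling chains of the B cell receptor were detected in all libraries. Cd79a (chromosome 7, 24897497 to 24901858, GRCm38.p6) measured 26.33, 150.58 and 26.65 FPKM in knockout, against 42.74, 151.29 and 195.82 FPKM in WT. Its partner Cd79b (chromosome 11, 106311341 to 106314562) measured 22.87, 49.78 and 19.29 FPKM in knockout, against 28.05, 58.3 and 60.52 FPKM in WT. Ms4a1, which encodes the B cell surface protein CD20, measured 9.05, 24.08 and 6.38 FPKM in knockout, against 10.76, 25.8 and 38.83 FPKM in WT. For all 3 genes the knockout and WT ranges overlapped, with WT replicate 1 beside the low knockout libraries. None passed the test between genotypes: by edgeR's quasi-likelihood test the log2 fold changes, knockout over WT, were -0.96 (SE 0.660, adjusted p = 0.389) for Cd79a, -0.69 (SE 0.345, adjusted p = 0.227) for Cd79b and -0.95 (SE 0.488, adjusted p = 0.242) for Ms4a1.

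The chains of the receptor did not vary by the same factor. The ratio of Cd79a to Cd79b FPKM was 1.15, 3.02 and 1.38 in the knockout libraries, against 1.52, 2.60 and 3.24 in the WT libraries, so it was highest where both were high. A straight line of each gene on the summed level of Cd79a, Cd79b and Ms4a1 over the 6 libraries, a description added after the values were seen, met a sum of 0 at 12.6 FPKM for Cd79b and -13.3 FPKM for Cd79a. Both genes are part of that sum.

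The inhibitory receptors did not share a single pattern. Cd22, a sialic acid-binding inhibitor of the B cell receptor, measured 9.23, 25.93 and 11.21 FPKM in knockout, against 12.61, 21.29 and 27.38 FPKM in WT. Cd72, another inhibitory receptor of B cells, measured 64.57, 55.22 and 50.78 FPKM in knockout, against 58.54, 81.15 and 66.49 FPKM in WT. Cd72 thus was among the most abundant surface genes in the libraries where the receptor chains were lowest, and its highest library was 1.60 times its lowest. Siglecg, an inhibitory lectin, followed the receptor chains, with 1.85, 9.47 and 2.43 FPKM in knockout, against 3.2, 9.52 and 13.07 FPKM in WT. Fcgr2b, the inhibitory Fc receptor, had the widest range of the 41 tested members, its highest library being 19.3 times its lowest. It measured 1.27, 5.81 and 0.41 FPKM in knockout, against 3.68, 4.52 and 7.92 FPKM in WT. These values rest on few counts, 16, 68 and 4 in knockout and 43, 57 and 99 in WT, so the range is uncertain.

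The Fc receptor relatives and lineage surface genes were mostly low and high in the same libraries. Fcmr, the receptor for IgM, measured 11.39, 42.03 and 11.3 FPKM in knockout, against 16.55, 51.38 and 50.29 FPKM in WT. Fcer2a, which encodes the low-affinity IgE receptor CD23, measured 7.38, 16.3 and 6.91 FPKM in knockout, against 5.38, 10.85 and 17.79 FPKM in WT. Fcrla, an intracellular Fc receptor-like protein of B cells, measured 4.61, 25.24 and 4.67 FPKM in knockout, against 3.74, 17.42 and 20.74 FPKM in WT. In both Fcer2a and Fcrla the lowest of the 6 libraries was WT replicate 1, and knockout replicate 2 exceeded WT replicate 2. Ly6d, a surface marker of early B lineage commitment, measured 11.19, 40.27 and 8.84 FPKM in knockout, against 18.48, 53.3 and 67.8 FPKM in WT, -1.23 as a log2 fold change (adjusted p = 0.181 and SE 0.550 by edgeR).

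Of the remaining surface genes, Cr2 (complement receptor CD21), Fcrl1, Vpreb3 and Cd180, a Toll-like receptor relative of B cells, were highest among the knockout libraries in replicate 2. Cr2 measured 0.38, 3.32 and 0.74 FPKM in knockout, against 0.89, 2.39 and 3.86 FPKM in WT. Vpreb3 rested on 6 to 18 counts a library. Cd180 rested on 2 to 21 counts, reached 1 FPKM only in WT replicate 3 and was below the filter. The receptors for survival factors of the TNF family differed: Tnfrsf13c, the receptor for BAFF, measured 2.84, 6.93 and 1.81 FPKM in knockout, against 5.68, 6.3 and 8.05 FPKM in WT. Tnfrsf13b (TACI) measured 5.84, 5.17 and 6.38 FPKM in knockout, against 3.44, 5.49 and 6.61 FPKM in WT, with no step between the libraries that were low and high elsewhere. Cd40, the receptor through which helper T cells license B cells, was highest in knockout replicate 2, at 2.71 FPKM, and between 0.7 and 1.34 FPKM in the other libraries.

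Genes of the signalling cascade below the receptor were low in counts and mostly followed Cd79a. The Src-family kinase Lyn measured 2.3, 11.12 and 1.96 FPKM in knockout, against 3.47, 9.58 and 11.32 FPKM in WT. The kinase Syk measured 1.06, 6.83 and 1.34 FPKM in knockout, against 1.53, 5.28 and 6.98 FPKM in WT. The adaptor Bank1 measured 2.43, 14.58 and 2.82 FPKM in knockout, against 3.91, 12.28 and 16.8 FPKM in WT. Blk, Btk and Blnk were likewise high in knockout replicate 2 and in WT replicates 2 and 3, with highest libraries 6.80, 11.1 and 7.44 times the lowest. Ralgps2, a guanine nucleotide exchange factor for Ral GTPases, stood outside this pattern at 6.44, 7.09 and 6.62 FPKM in knockout, against 5.15, 5.99 and 7.54 FPKM in WT.

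Swap70 (chromosome 7, 110221703 to 110283506, GRCm38.p6), a signalling protein that links B cell activation to the cytoskeleton, was the 1 tested gene of the 41 that passed the threshold. It measured 2.17, 5.36 and 3.08 FPKM in knockout, against 5.96, 7.26 and 10.13 FPKM in WT, from 71, 169 and 98 counts in knockout and 205, 253 and 345 counts in WT. All 3 knockout libraries lay below all 3 WT libraries. Swap70 fell to 3.54 ± 1.64 FPKM in knockout, against 7.78 ± 2.13 FPKM in WT (SD, n = 3 each), -1.16 as a log2 fold change (adjusted p = 0.0302 and SE 0.294 by edgeR). The call was lost when knockout replicate 1 (adjusted p = 0.0887), knockout replicate 3 (0.135), WT replicate 2 (0.0567) or WT replicate 3 (0.131) was left out, with log2 fold changes between -1.22 and -0.90, and it was also lost in limma on log2(FPKM + 1) (adjusted p = 0.0568).

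The transcription factors of B cell identity were scarce. Ebf1 measured 0.38, 3.75 and 0.61 FPKM in knockout, against 0.85, 4.25 and 3.86 FPKM in WT. Pax5 rested on 0, 20 and 1 counts in knockout and on 2, 5 and 30 counts in WT, was listed in 5 of 6 libraries and was below the filter. Bcl11a, a zinc finger factor needed for B cell development, was also below the filter, with 3 to 57 counts a library. Mef2c, which acts downstream of the receptor, measured 1.44, 6.08 and 1.47 FPKM in knockout, against 2.07, 5.95 and 8.7 FPKM in WT. The Ets factor Spib measured 2.01, 4.82 and 1.56 FPKM in knockout, against 2.1, 5.01 and 9.36 FPKM in WT. Both were high in the libraries where Cd79a was high. Pou2f2 (OCT2) and its coactivator Pou2af1 were flatter: their highest libraries were 2.27 and 2.64 times their lowest.

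The 4 most abundant of the 44 genes were Cd74, H2-Ab1, H2-Aa and H2-Eb1, the MHC class II invariant chain and classical chains. The H2 genes lie close together on mouse chromosome 17, and RefSeq promoter windows (250 bases before to 50 after the start) were matched for 7 of them and for 34 of the 44 genes. Class II promoters are known for an X box and a Y box close to the start. The 6 stretches printed here run from 110 to 21 bases before the start. They are shown because they hold the Y box letters of genes that did and of genes that did not keep a steady ratio to the B cell receptor transcripts. Capitals mark matches to CCAAT, to TGACGT and to AGCAAC on either strand, and each line is read 5′ to 3′ in the direction of the gene.
H2-Aa: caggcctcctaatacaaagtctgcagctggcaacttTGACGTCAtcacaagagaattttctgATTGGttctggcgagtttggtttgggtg
H2-Eb1: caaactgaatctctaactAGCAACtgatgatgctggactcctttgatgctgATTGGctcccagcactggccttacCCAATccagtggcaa
H2-DMb1: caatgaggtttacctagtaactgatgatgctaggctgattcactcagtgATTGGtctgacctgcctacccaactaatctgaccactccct
H2-DMb2: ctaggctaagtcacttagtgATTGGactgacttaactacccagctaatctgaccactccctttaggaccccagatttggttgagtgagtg
H2-Oa: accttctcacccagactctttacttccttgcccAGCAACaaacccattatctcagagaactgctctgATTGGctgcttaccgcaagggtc
H2-Ob: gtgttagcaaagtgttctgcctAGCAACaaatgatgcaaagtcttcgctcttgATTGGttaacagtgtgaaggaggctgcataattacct

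In RefSeq's GRCm38.p6 the stretches are chr17:34287844-34287933 on the minus strand for H2-Aa, and on the plus strand chr17:34305757-34305846 for H2-Eb1, chr17:34153081-34153170 for H2-DMb1, chr17:34145139-34145228 for H2-DMb2, chr17:34092269-34092358 for H2-Oa and chr17:34238795-34238884 for H2-Ob. Distances are counted from the start that the RefSeq window table uses, which for H2-DMb2 and H2-DMa lies inside the gene range given in this report and not at its first base. The CCAAT letters, the Y box core, stood in a window of each of the 7 class II genes in the reverse orientation (ATTGG), at 48 bases before the start in H2-Aa, 59 in H2-Eb1, 61 in H2-DMb1, 90 in H2-DMb2, 43 in H2-Oa and 57 in H2-Ob. H2-DMa held them at 198 bases in its second window and not in its first. Of all genes with a window 41.1% held CCAAT on either strand, and 15 of the 34 genes did. TGACGT, a cyclic AMP response element letter run found in the X2 box, stood in 2 of the 34, H2-Aa and Pou2af1, against 8.37% of all genes, and in H2-Aa the matches on both strands overlap. AGCAAC, part of the X box, stood in 7 of the 34 and in 3 of the 7 class II genes, H2-Eb1, H2-Oa and H2-Ob, against 16.7% of all genes. The octamer ATGCAAAT, bound by POU2F2, stood in 2 of the 34 (Blnk and Vpreb3, against 1.97% of all genes), and CCCNNGGG, the core of the EBF1 site, in 4 (Bank1, Cd22, H2-DMb2 and Spib, against 15.4%). A match is a description of letters and not evidence of binding.

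Cd74, the invariant chain, was the most abundant of the 44 genes. It measured 398.66, 1675.71 and 354.06 FPKM in knockout, against 529.88, 1785.33 and 2064.02 FPKM in WT. Its group means were 809 ± 751 FPKM in knockout and 1460 ± 817 FPKM in WT (SD, n = 3 each), -0.87 as a log2 fold change (adjusted p = 0.379 and SE 0.588 by edgeR), which is within the spread between libraries. With knockout replicate 2 left out it was -1.93 (SE 0.439, adjusted p = 0.0174, edgeR). That library was singled out because it was high in these same genes.

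The classical class II chains followed Cd74. The I-A alpha chain H2-Aa (chromosome 17, 34282744 to 34287823) measured 74.95, 336.59 and 63.25 FPKM in knockout, against 100.29, 344.12 and 416.56 FPKM in WT. The I-A beta chain H2-Ab1 (34263227 to 34269418) measured 102.46, 477.2 and 90.75 FPKM in knockout, against 138.23, 505.65 and 555.53 FPKM in WT. The I-E beta chain H2-Eb1 (34305867 to 34316674) measured 32.4, 169.51 and 34.24 FPKM in knockout, against 57.13, 183.82 and 214.07 FPKM in WT. In each of the 3 genes knockout replicate 2 lay just under WT replicate 2, and knockout replicates 1 and 3 lay under WT replicate 1. The paired I-A chains kept a close ratio: H2-Aa to H2-Ab1 FPKM was 0.732, 0.705 and 0.697 in knockout, against 0.726, 0.681 and 0.750 in WT. The log2 fold changes were -0.88, -0.86 and -0.97, with adjusted p = 0.397, 0.412 and 0.347 (edgeR).

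The class II transactivator Ciita was scarce but kept step with Cd74 and the classical chains, at 1.3, 5.04 and 1.23 FPKM in knockout, against 1.38, 5.2 and 7.27 FPKM in WT. Napsa, an aspartic protease of the endosomal pathway, measured 3.89, 26.82 and 5.7 FPKM in knockout, against 10.97, 32.39 and 40.96 FPKM in WT, -1.23 as a log2 fold change (adjusted p = 0.238 and SE 0.629 by edgeR). For both genes the groups overlapped through knockout replicate 2.

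The chains of the peptide-loading complex H2-DM differed from each other. The beta chains H2-DMb1 (34153191 to 34160229) and H2-DMb2 (34143229 to 34151553) followed the classical chains: H2-DMb1 measured 11.6, 45.76 and 7.18 FPKM in knockout, against 16.33, 47.32 and 47.21 FPKM in WT. H2-DMb2 measured 22.59, 114.94 and 18.92 FPKM in knockout, against 31.75, 99.69 and 138.44 FPKM in WT. The alpha chain H2-DMa (34119693 to 34139101) measured 40.1, 48.07 and 36.73 FPKM in knockout, against 28.47, 55.83 and 58.72 FPKM in WT, so that its highest library was 2.06 times its lowest. The ratio of H2-DMa to the summed beta chains was 1.17, 0.299 and 1.41 in knockout, against 0.592, 0.380 and 0.316 in WT. It was highest in the 3 libraries with the fewest class II transcripts. The beta chain genes are near-identical copies, and the division of reads between them is uncertain.

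Both chains of H2-DO, the inhibitor of H2-DM, varied less than the classical chains. The highest library was 1.70 times the lowest for H2-Oa and 2.15 times for H2-Ob. The alpha chain H2-Oa (34092379 to 34095234) measured 40.59, 52.67 and 39.87 FPKM in knockout, against 31.28, 47.47 and 53.04 FPKM in WT. The beta chain H2-Ob (34238905 to 34245908) measured 49.81, 58.13 and 44.95 FPKM in knockout, against 26.99, 45.42 and 49.47 FPKM in WT. The ranges overlapped for both, and the lowest library was WT replicate 1. In knockout replicates 1 and 3, H2-Ob FPKM was 0.486 and 0.495 of H2-Ab1 FPKM, against 0.122 in knockout replicate 2 and 0.195, 0.0898 and 0.0891 in WT. The log2 fold changes were 0.00 (SE 0.179, adjusted p = 0.995) for H2-Oa and 0.32 (SE 0.184, adjusted p = 0.302) for H2-Ob by edgeR.

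To see which genes kept a fixed proportion within a library, each was divided by the summed FPKM of Cd79a, Cd79b and Ms4a1. That sum was 58.25, 224.44 and 52.32 FPKM in knockout, against 81.55, 235.39 and 295.17 FPKM in WT. The coefficient of variation (CV, the SD over the mean) across the 6 libraries was lower for the ratio than for the FPKM itself in 33 of the 41 genes outside the sum. For Cd74 it was 5.99% for the ratio and 69.4% for FPKM, for Mef2c 7.01% and 71.1%, for Fcmr 9.13% and 63.7%, and for H2-Aa 9.20% and 71.7%. H2-Ab1, Lyn, H2-Eb1, Ciita, H2-DMb2 and H2-DMb1 had ratios with CVs between 10.6% and 15.3%. Cd40, at 52.5% and 53.3%, was the member nearest to equal values on the lower side and Pou2af1, at 46.3% and 42.3%, on the other. The share of all tested genes with a lower CV for the ratio was not counted.

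The summed level of 10 class II genes (Cd74, Ciita and the 8 H2 genes) stood in nearly the same proportion to this sum in both genotypes. It was 13.3, 13.3 and 13.2 times the sum in knockout, against 11.8, 13.3 and 12.2 times in WT. On the log2 scale the ratio averaged 3.73 ± 0.0053 in knockout and 3.63 ± 0.0865 in WT (SD, n = 3 each), a difference of 0.10. The sum is dominated by Cd74 and the classical chains. For H2-DMa, H2-DMb1, H2-DMb2, H2-Oa, H2-Ob and Ciita alone the log2 difference was 0.73.

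**Figure D3:**
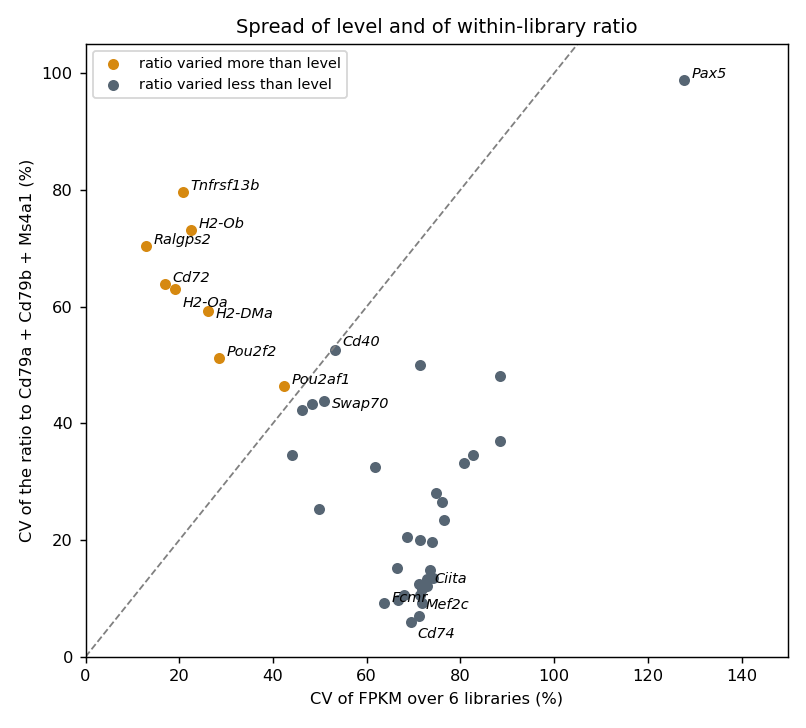
Coefficient of variation over the 6 libraries of the ratio to Cd79a + Cd79b + Ms4a1 (vertical, %) against that of FPKM (horizontal, %) for the 41 genes outside the sum, with equal values on the dashed line. The 33 genes below the line, with Cd74 lowest at 5.99%, kept a steadier ratio than level, and the 8 orange genes above it, from Pou2af1 to Tnfrsf13b, had the steadier level.

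The 8 genes whose ratio varied at least as much as their level were H2-DMa, H2-Oa, H2-Ob, Cd72, Ralgps2, Tnfrsf13b, Pou2f2 and Pou2af1. Their FPKM varied by CVs between 13.0% (Ralgps2) and 42.3% (Pou2af1), and their ratios by between 46.3% (Pou2af1) and 79.7% (Tnfrsf13b). Straight lines on the summed Cd79a, Cd79b and Ms4a1 level, drawn after the values were seen, met a sum of 0 at 29.1 FPKM for H2-DMa, 33.4 FPKM for H2-Oa, 39.0 FPKM for H2-Ob and 54.8 FPKM for Cd72. For Cd74, H2-Aa, H2-Ab1 and H2-DMb2 the lines met it slightly below 0, at -34.0, -14.8, -16.9 and -6.84 FPKM. H2-DMa, H2-Oa and H2-Ob lie on chromosome 17 between 34092379 and 34245908, and the steady-ratio genes H2-DMb2 and H2-DMb1 lie between H2-DMa and H2-Ob.

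**Figure D4:**
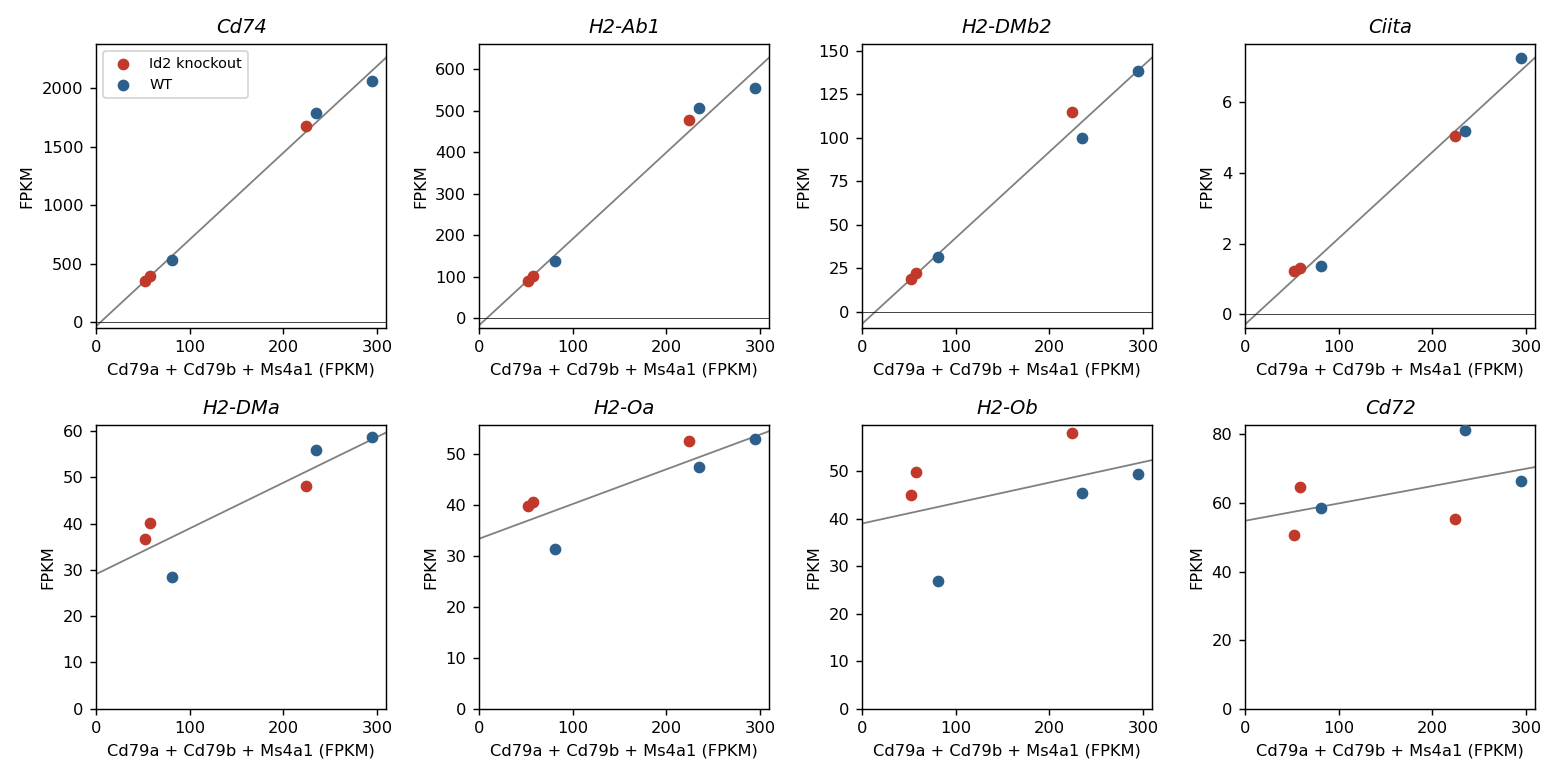
FPKM of 8 genes (vertical axes, different scales) against the summed FPKM of Cd79a, Cd79b and Ms4a1 (horizontal) in the 3 knockout libraries (red) and 3 WT libraries (blue), with a straight line through the 6 points. Cd74, H2-Ab1, H2-DMb2 and Ciita lie on lines that pass near 0, while H2-DMa, H2-Oa, H2-Ob and Cd72 keep 29.1, 33.4, 39.0 and 54.8 FPKM where the lines meet a sum of 0.

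Between genotypes, 1 of the 41 tested genes was lower in knockout and 0 were higher by edgeR at an adjusted p of 0.05, against 8.77% lower and 3.14% higher among the 10890 genes tested. By groups, 0 of 17 surface genes, 1 of 8 signalling genes, 0 of 5 transcription factors and 0 of 11 class II and processing genes passed. DESeq2 also called 1 lower, against 9.82% of all genes. In each tool 2 of the 41 had an unadjusted p under 0.05, against 3001 (edgeR) and 2769 (DESeq2) of the 10890 genes. Limma called 0, on log2(FPKM + 1) against 7.92% of all genes lower and on log2(FPKM + 0.1) against 7.64%. At an unadjusted p under 0.05 limma had 2 and 1 of the 41, against 2913 and 2896 of the 10890. The median log2 fold change was -0.80 over the 41 genes and 0.01 over all genes tested, and 36 of the 41 were negative. Only Swap70 had FPKM ranges that did not overlap between the groups (1 of 41 lower in knockout, 0 higher, against 16.8% lower and 15.3% higher of all genes tested). The comparison is between groups with large internal spread: the 5 genes with a fold change of 0 or above were Cd40 (0.30), Tnfrsf13b (0.16), Ralgps2 (0.09), H2-Oa (0.00) and H2-Ob (0.32).

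Knockout replicate 2 decided that count. It was singled out because it was high in these same genes. Leaving it out therefore lowers their knockout mean and spread, and the calls that follow are not independent evidence of a genotype difference. Without knockout replicate 2, 25 of the 41 were lower in knockout and 0 higher by edgeR, against 9.94% of all genes lower and 4.41% higher. The median log2 fold change was then -1.77. The 25 comprised 11 surface genes, 5 signalling genes (Bank1, Blk, Lyn, Swap70 and Syk), the factors Ebf1 and Mef2c, and 7 class II and processing genes (Cd74, H2-Aa, H2-Ab1, H2-Eb1, H2-DMb1, H2-DMb2 and Napsa). The surface genes were Cd79a, Cd79b, Ms4a1, Cd22, Siglecg, Fcgr2b, Cr2, Fcmr, Fcrl1, Ly6d and Tnfrsf13c. Cd79a then stood at -2.27 (adjusted p = 0.0143) and H2-Ab1 at -2.03 (adjusted p = 0.0169) on the log2 scale, and Ciita missed the threshold (adjusted p = 0.0531, edgeR). By the same test 0 were called without knockout replicate 1 (against 6.32% of all genes lower), knockout replicate 3 (4.75%), WT replicate 2 (7.7%) or WT replicate 3 (5.18%), and 1 without WT replicate 1 (7.37%). Those with an unadjusted p under 0.05 numbered 2, 1, 1, 2 and 16 of the 41, in the same order. Over all 10890 tested genes they numbered 2664, 2135, 2579, 2308 and 2804.

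**Figure D5:**
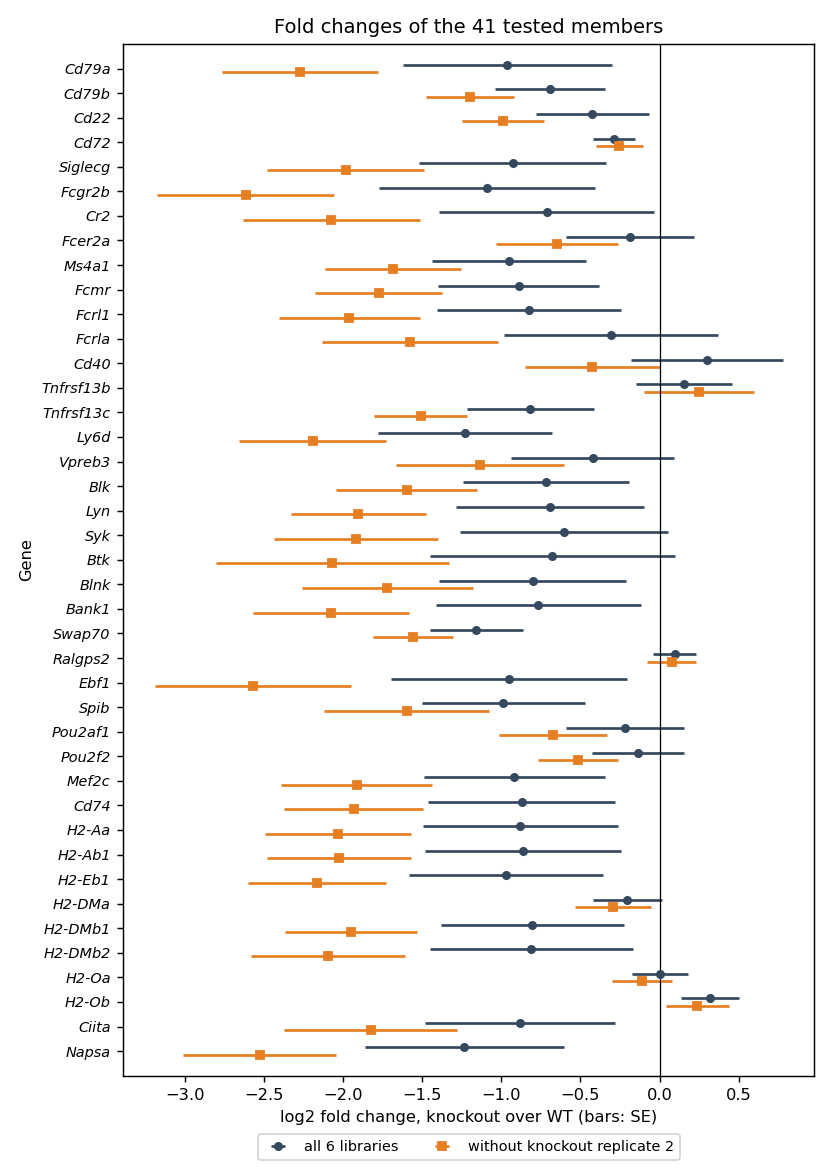
Log2 fold change, knockout over WT (horizontal), with its SE for each of the 41 tested genes (down the page), from all 6 libraries (dark circles) and without knockout replicate 2 (orange squares). The median is -0.80 with all libraries and -1.77 without that library, and Cd72, Tnfrsf13b, Ralgps2, H2-DMa, H2-Oa and H2-Ob stay close to 0 in both.

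With the log2 summed level of Cd79a, Cd79b and Ms4a1 as a covariate, the median log2 fold change of the other 38 tested genes was 0.11. The covariate was made from genes of the same set in the same libraries. Counting those 3 genes, 26 of the set had a Pearson's r of at least 0.95 with their summed FPKM. A smaller median was thus built into the fit and does not test whether a genotype difference remains. In the covariate fit 2 of the 38 were higher and 1 lower in knockout by edgeR, against 2.48% higher and 7.92% lower of all genes. Their log2 fold changes were 0.76 for Fcrla (adjusted p = 0.0242), 0.60 for H2-Ob (adjusted p = 0.0277) and -0.80 for Swap70 (adjusted p = 0.0356). None of the 3 calls held whichever library was left out of this fit. H2-Ob was lost without knockout replicates 1 (adjusted p = 0.0559) or 3 (0.0743) or WT replicate 1 (0.301), Fcrla without knockout replicates 2 (0.211) or 3 (0.0541) or WT replicates 1 (0.141) or 3 (0.0568), and Swap70 without any library but WT replicate 2 (0.0599 to 0.299, edgeR).

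Of 28 further B cell genes tested, 1 rose and 0 fell (median -0.29 on the log2 scale), against 3.14% higher and 8.77% lower of all genes. Without knockout replicate 2, 2 of the 28 were higher and 11 lower by edgeR, against 4.41% and 9.94%. That library was singled out for its high B cell gene levels, so the count without it carries the same limit as above. The chemokine receptor Cxcr5, which guides cells to follicles and is also made by some CD8+ T cells, reached 27.9 ± 0.515 FPKM in knockout, against 15.4 ± 4.89 FPKM in WT (log2 fold change 0.85, SE 0.189, adjusted p = 0.0170, edgeR). The Cxcr5 call was lost without knockout replicates 1 (adjusted p = 0.0568) or 3 (0.0607) or WT replicate 3 (0.0549). The most abundant of these genes, Cd37, Cxcr4 and Snx2, are made by many leukocytes, averaged 182, 54.7 and 55.8 FPKM in knockout and 167, 56.8 and 55.0 FPKM in WT, and did not pass.

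Of 12 further genes of class II expression, processing and costimulation tested, 0 rose and 2 fell, with a median of -0.04. Of all genes 3.14% rose and 8.77% fell. The same 2 fell without knockout replicate 2, against 9.94% of all genes. Ifi30, the lysosomal thiol reductase GILT, fell to 19.6 ± 6.92 FPKM in knockout, against 49.1 ± 13.8 FPKM in WT (log2 fold change -1.34, SE 0.247, adjusted p = 0.00686, edgeR). The costimulatory ligand Cd80 fell to 0.303 ± 0.337 FPKM in knockout, against 2.74 ± 0.617 FPKM in WT (log2 fold change -3.17, SE 0.556, adjusted p = 0.00533, edgeR). For both the ranges did not overlap, and both calls held whichever library was left out. Cd80 rested on 1, 9 and 2 counts in knockout and 49, 33 and 35 in WT. It thus passed the FPKM filter through the WT libraries alone. In edgeR's fit without a filter Cd80 had an adjusted p of 0.000679. The protease Ctss, which trims the invariant chain, measured 200.72, 192.27 and 187.94 FPKM in knockout, against 165.22, 187.12 and 175.18 FPKM in WT. The Y box factor subunit Nfyc averaged 56.4 ± 9.83 FPKM in knockout and 53.0 ± 3.20 FPKM in WT (SD, n = 3 each). Neither passed.

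Dendritic cells and macrophages also present antigen on MHC class II. Of 6 dendritic cell markers tested, 4 fell in knockout and 0 rose (median -1.30), against 8.77% lower and 3.14% higher of all genes. They were Itgax (log2 fold change -3.90, adjusted p = 0.000654), Batf3 (-4.89, adjusted p = 0.00400), Zbtb46 (-2.07, adjusted p = 0.00755) and Bst2 (-0.54, adjusted p = 0.0205) by edgeR. Bst2 lost its call without knockout replicates 1 (adjusted p = 0.0842) or 3 (0.119) or WT replicates 1 (0.0586) or 2 (0.0630). Itgax and Batf3 passed the FPKM filter through the WT libraries alone, with 11, 30 and 11 and with 1, 0 and 4 counts in knockout. In edgeR's fit without a filter their adjusted p was 2.21e-06 and 0.000117. Activated CD8+ T cells can also make Itgax, Batf3 and Bst2. Flt3 stood at 0 to 0.52, Cd209a at 0 to 0.34 and Siglech at 0.24 to 0.70 FPKM, while Xcr1 stood at 2.04 to 3.58 FPKM. Zbtb46 measured 0.68, 1.6 and 0.45 FPKM in knockout, against 3.86, 4.22 and 3.46 FPKM in WT. The 9 listed dendritic markers summed to 134.72 to 178.71 FPKM in knockout and to 210.09 to 228.24 FPKM in WT. Most of that sum was Bst2. It was 217.67 FPKM in WT replicate 1, which was low for the 44 genes, and knockout replicate 2, which was high for them, was the highest knockout library at 178.71 FPKM. Batf3 was also low in WT replicate 1, at 2.94 FPKM, against 12.8 and 13.79 FPKM in the other WT libraries. Ccr9, the other abundant marker of the list, averaged 19.5 FPKM in knockout and 13.9 FPKM in WT and did not pass.

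Of 7 macrophage and monocyte markers tested, 0 passed (median 0.07), against 8.77% lower and 3.14% higher of all genes. Their sum was 1492.78 to 1614.53 FPKM in knockout and 1313.84 to 1576.11 FPKM in WT. Most of the sum was Ly6c2, which CD8+ T cells make too, at 1520 FPKM on average in knockout and 1435 FPKM in WT. Of the 7, 3 had a negative fold change, Itgam, Cd68 and C1qc, each with knockout ranges below WT. Itgam measured 0.37, 0.72 and 0.62 FPKM in knockout, against 7.91, 1.18 and 1.09 FPKM in WT (log2 fold change -2.62, adjusted p = 0.0521, edgeR). It passed without WT replicate 2 (adjusted p = 0.0297) or 3 (0.0391, edgeR). Lyz2 and Cd68 averaged 27.8 and 4.67 FPKM in knockout and 22.6 and 8.76 FPKM in WT. Adgre1 and Mertk stood at 0 to 0.07 and 0 to 0.11 FPKM. C1qa, C1qb and C1qc stood at 0.48 to 1.64, 0.62 to 2.73 and 0.48 to 1.59 FPKM. Of 6 plasma cell markers tested 2 fell (median -1.03), against 8.77% lower of all genes. They were Prdm1 (log2 fold change -2.50, adjusted p = 0.00124) and Jchain (-1.48, adjusted p = 0.00874, edgeR). Xbp1, Irf4 and Mzb1, at means of 76.9, 12.4 and 4.30 FPKM in knockout and 75.0, 14.7 and 13.5 FPKM in WT, did not pass. The plasma cell sum was 92.27 to 109.95 FPKM in knockout and 105.96 to 125.13 FPKM in WT. Effector CD8+ T cells also make Prdm1. The part of these markers in the values of the 44 genes was not tested.

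Among T cell markers, 1 of 12 tested fell and 0 rose (median 0.19), against 8.77% lower and 3.14% higher of all genes. It was Thy1 (log2 fold change -0.35, adjusted p = 0.0397, edgeR), a call lost whichever library was left out (adjusted p between 0.0562 and 0.144). Lck, Cd3g and Cd8b1 averaged 851, 742 and 663 FPKM in knockout and 736, 666 and 717 FPKM in WT and did not pass. Of 2 CD4 T cell genes and 5 NK cell markers tested 0 passed. Foxp3, Cd4 and Zbtb7b averaged 3.65, 1.48 and 0.193 FPKM in knockout and 3.55, 2.36 and 0.637 FPKM in WT. Nkg7, Klre1 and Eomes, which CD8+ T cells also make, averaged 1057, 4.15 and 8.80 FPKM in knockout and 1441, 13.5 and 6.02 FPKM in WT. Of the 5 NK cell markers, 3 had a negative fold change. Among them, Nkg7 and Klre1 had knockout ranges below WT, and Klre1 lay near the threshold (log2 fold change -1.74, adjusted p = 0.0530, edgeR). Both passed with the B cell covariate (adjusted p = 0.00214 for Nkg7 and 0.0214 for Klre1, edgeR).

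The genes outside the list most like the 44 across the libraries were found by Pearson's r of log2(FPKM + 1) with the log2 of the 44 genes' summed FPKM, over the 6 libraries and 10849 other genes. Among the highest were Cyp4f18, Scd1, Cd83, Cse1l, Hacd3, Psmg2, Aldh2, Bcar3 and Sdc4, with r between 0.992 and 0.999, and 97 genes reached 0.95. All values of a library share its depth and preparation. Cyp4f18 measured 1.55, 8.41 and 1.37 FPKM in knockout, against 2.04, 8.73 and 10.06 FPKM in WT. Cd83, a surface protein of activated B cells and dendritic cells, measured 26.88, 76.41 and 27.94 FPKM in knockout, against 35.8, 72.45 and 86.5 FPKM in WT. Cse1l, Hacd3 and Psmg2 were highest in the same 3 libraries but with small steps, Cse1l measuring 37.53, 50.77 and 38.04 FPKM in knockout, against 39.06, 52.48 and 55.31 FPKM in WT.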

How the data were processed

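Per the file headers, each deposited table holds for every listed gene an expected count (reads shared out among the genes they match) and an FPKM value. A gene missing from a table was set to 0. The submitters' processing notes name CASAVA, Bowtie2 and RSEM, with the mm10 build and no versions. No source used here gives the strand setting of the counting. The authors' expected counts were rounded, normalized by TMM and tested two-sided by quasi-likelihood in edgeR 4.0.16 (R 4.3.3). The test took the 10890 genes that reached 1 FPKM in 3 or more of 6 libraries and left out 5859. Adjustment was by Benjamini-Hochberg over all tested genes at a threshold of 0.05. Of the listed genes, 42 had no RefSeq symbol. An SE is the log2 fold change divided by the root of its F statistic.

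The members, the lists of other genes and the tests were chosen with earlier results of these data known. Values by library are given for members averaging at least 10 FPKM, past the threshold or without overlap. Of other lists, called genes and the 3 most abundant are named, and beyond the lists the 10 genes most like the members, except that a gene this rule takes is not reported here. Further values and genes were added after they were seen. Ighm, Ighd, Igkc, the Iglc genes, Trac and the Trbc genes were not analysed here. Libraries of a group were checked for duplicates and differed by 5.19 to 16.3 chi-square units per degree of freedom.

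In simulated data with 10890 genes, of which 200 changed, 86% of 2-fold and 98% of 4-fold changes were recovered by edgeR, and 8 of its 192 calls were false. The biological coefficient of variation, the spread between samples beyond counting error, was 0.156 as a single value. Many of the B cell and MHC class II genes spread more widely, Cd79a having a log2 fold change of -0.96 with an SE of 0.66 (edgeR). The recovered shares were not worked out for genes with such spread and do not give the power for them. The alternatives comprised DESeq2 1.42.0, edgeR with DESeq2 size factors, limma 3.58.1 on log2(FPKM + 1) or log2(FPKM + 0.1), the unfiltered table, a minimum of 5 FPKM, a block for replicate number, the B cell covariate and leaving each library out. Leaving a library out of the covariate fit was chosen after seeing the data.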

Additional observations from a re-analysis of the deposited data

How the results depend on the processing

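The count of 1 B cell or MHC class II gene past the threshold became 0 in limma on log2(FPKM + 1), 0 on log2(FPKM + 0.1) and 3 with the B cell covariate, and ran from 0 to 25 over the libraries left out in turn. For all genes that range was 601 to 1562 about 1297, with 685 without WT replicate 3. The log2 ratio of the summed level, -0.77, was -1.92 between median libraries and -1.73 to -0.45 with libraries left out. The log2 class II proportion, 0.10, was 0.73 without Cd74 and the classical chains, and 0.06 to 0.14 with libraries left out. The cause of these shifts was not tested.

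Over all alternatives for single genes, 500 fold changes kept their direction and side of the threshold, 25 passed it newly, 6 no longer passed and 31 changed sign. With the B cell covariate the sign changed for Cd22 (0.10), Ebf1 (0.039), Blnk (0.14), Btk (0.56), Fcrla (0.76), Fcer2a (0.50), Cr2 (0.19), Pou2af1 (0.36), Pou2f2 (0.13), Bank1 (0.15), Vpreb3 (0.20), Cd74 (0.026), H2-Aa (0.040), H2-Ab1 (0.057), H2-DMa (0.14), H2-DMb2 (0.11), Ciita (0.14), Syk (0.35) and Lyn (0.11). With libraries left out in turn, it changed for Fcrla (-1.57 to 0.086), Fcer2a (-0.65 to 0.29), Pou2af1 (-0.67 to 0.083), Pou2f2 (-0.51 to 0.087), Cd40 (-0.42 to 0.65), H2-Oa (-0.16 to 0.15) and Tnfrsf13b (-0.037 to 0.36). Among these, Fcrla with the covariate was the one past the threshold. The covariate was made from genes of this set, so sign changes with it carry the limit given above.

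The labels name no pairing by replicate number. Deviations from the group means of same-numbered samples correlated at 0.135, 0.074 and -0.07, and those of differently numbered samples at -0.225 to 0.181. These values cannot decide whether the samples were paired. With the number as a block, 1 of the 41 genes passed, Swap70 (adjusted p = 0.0241, edgeR), and 1183 of all genes. An unadjusted p under 0.05 was then reached by 13 of the 41 genes, against 2 without the block (edgeR). Over all tested genes these numbers were 2962 and 3001. Pax5, Cd180 and Bcl11a, below the FPKM filter, did not pass in the fit without a filter either.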
